A study of Sus scrofa with 12 samples.

Results

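Fucosyltransferases move fucose from the donor GDP-fucose onto sugars or onto proteins. The genes of this family were compared in the liver of Jinhua (JH) and Landrace (LD) pigs. Members were taken by symbol from a list of 8 genes, which was chosen by name around FUT1. FUT1 itself was selected on its measured difference between the breeds in these same libraries. For FUT1 the breed difference is therefore given as a description without a p value. Of the 8 symbols, 7 were among the 31694 genes of each library (FUT1, FUT2, FUT4, FUT8, FUT11, POFUT1 and POFUT2), and FUT10 was dropped. All 7 were among the 12993 genes tested, which reached 0.5 RPKM in 3 or more libraries. RPKM is the read count of a gene divided by its length and by the depth of its library.

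Liver was taken from 3 JH and 3 LD pigs, all uncastrated males of 70 days of age, and 1 mRNA library was sequenced for each pig. Totals of 5744909 to 7914515 reads per library were inferred from the RPKM values. They are not the sequencing depth, since they lie below the clean reads that the authors report for each library. Which reads they count is not stated. LD, a commercial meat breed, was the control group, and JH is a local breed from China that fattens more. Breed is the only factor that the labels give between the groups, and whole liver tissue was used, so that fewer cells of a type and less RNA per cell cannot be told apart.

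The members act on different acceptors. FUT1 and FUT2 add fucose in alpha linkage to a terminal galactose and so make the H antigen, the precursor of the A and B blood group sugars. FUT1 is best known in pigs because its activity in the intestine is tied to the receptor of F18 fimbriated Escherichia coli, and FUT2 is the secretor gene of epithelia and secretions. FUT4 adds fucose to N-acetylglucosamine in Lewis x type sugars of blood cells. FUT8 is the only enzyme that adds core fucose to N-glycans, a common change on glycoproteins that the liver secretes. FUT11 is a distant relative in the endoplasmic reticulum. POFUT1 and POFUT2 work in the endoplasmic reticulum as well and put fucose directly on folded protein domains, POFUT1 on the epidermal growth factor-like repeats of Notch and its ligands and POFUT2 on thrombospondin type repeats.

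The expression of FUT1 was 20.6, 25.6 and 24.1 RPKM in JH1, JH2 and JH3. In LD1, LD2 and LD3 it was 5.70, 11.8 and 3.99 RPKM. All JH values lay above all LD values, and the lowest JH value was 1.74 times the highest LD value. The JH mean was 23.4 ± 2.53 RPKM and the LD mean 7.17 ± 4.13 RPKM (SD, n = 3 each). On the scale of the fit, log2(RPKM + 0.1), FUT1 had a log2 fold change between JH and LD of 1.84 ± 0.37 (SE) with a 95% interval of 0.99 to 2.68, that is 3.57-fold higher in JH. A larger absolute log2 fold change was found for 3.27% of the tested genes. FUT1 passed the threshold of the fit (limma, an adjusted p by Benjamini-Hochberg under 0.05 with a log2 fold change beyond 1 in size), the contrast on which it was chosen.

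FUT1 varied more among the LD pigs than among the JH pigs. The coefficient of variation was 10.8% among JH pigs and 57.6% among LD pigs, where LD2 stood above LD1 and LD3. Whole reads could be recovered from the RPKM values for every member, and FUT1 rested on 387, 647 and 609 reads in JH and on 132, 305 and 103 reads in LD. Counting alone gives a coefficient of variation of 4.31% in JH and 7.46% in LD. The exact 95% Poisson interval of LD2, 10.5 to 13.2 RPKM, lay apart from that of LD1, 4.77 to 6.75 RPKM. These intervals cover counting error only, since reads are not independent molecules. Without LD2 the log2 fold change of FUT1 was 2.27, and without LD3 it was 1.49. Of the 6 fits with 1 pig removed, FUT1 was past the threshold only in the fit without LD2.

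**Figure D1:**
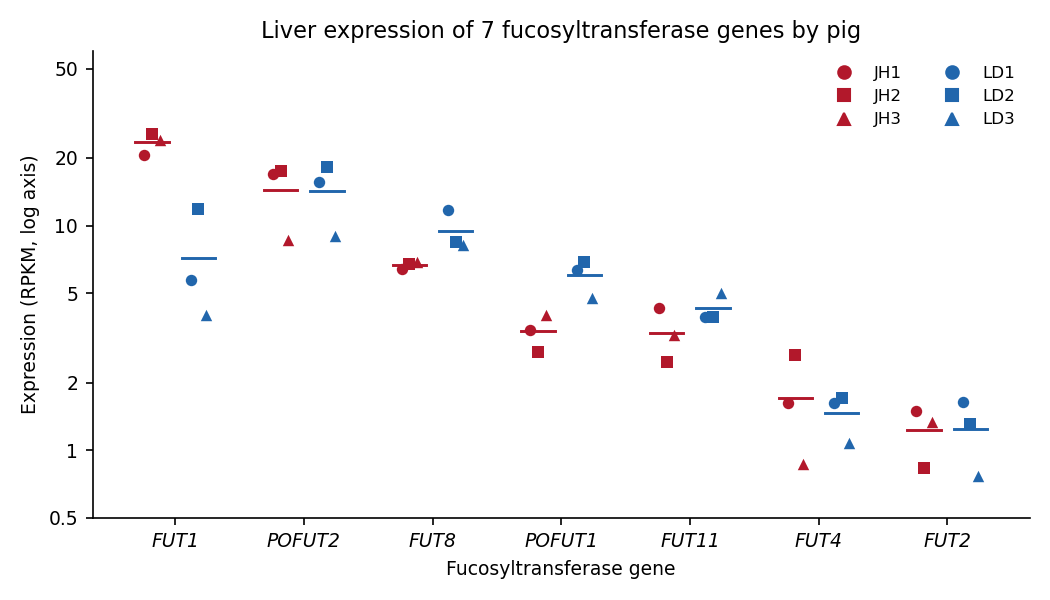
Expression of the 7 fucosyltransferase genes in RPKM on a log axis, with 1 point per pig (JH red, LD blue, the symbol giving the replicate) and a line at the mean of each breed. FUT1, chosen for its difference, is the only member whose 3 JH points lie above all LD points, while FUT8 and POFUT1 lie lower in JH and the other 4 overlap. The breeds did not overlap in 23.4% of all tested genes.

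FUT2 makes the same linkage as FUT1 but was the lowest member in both breeds. Its expression was 1.5, 0.835 and 1.34 RPKM in JH and 1.64, 1.31 and 0.764 RPKM in LD, so the breeds overlapped. The log2 fold change was 0.01 ± 0.40 (SE, limma adjusted p = 0.996), and its 95% interval of -0.89 to 0.91 reaches from 0.539-fold to 1.87-fold. Only 14 to 27 reads per library stood behind these values, and a single read was worth 0.0546 to 0.0752 RPKM. Of the JH spread of 28.4%, expressed as a coefficient of variation, counting alone gives 22.8%. FUT1 was 13.7 to 30.6 times FUT2 in the JH pigs and 3.47 to 9.02 times FUT2 in the LD pigs.

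FUT4 was also low, with 1.62, 2.64 and 0.866 RPKM in JH and 1.63, 1.70 and 1.08 RPKM in LD. The LD values lay within the range of the JH values, and JH2 was the highest of the 6. The log2 fold change was 0.10 ± 0.42 (SE, limma adjusted p = 0.925) on 18 to 55 reads per library.

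FUT8, the core fucose enzyme, had lower values in JH, without overlap. Its expression was 6.40, 6.77 and 6.89 RPKM in JH and 11.7, 8.42 and 8.18 RPKM in LD. The JH pigs were close to one another, with a coefficient of variation of 3.79%, below the 7.82% that counting gives, while LD1 stood above the other LD pigs. Its log2 fold change of -0.47 ± 0.24 (SE), with a 95% interval of -1.02 to 0.08, was not past the threshold (limma adjusted p = 0.353). The ratio of FUT1 to FUT8 lay apart between the breeds. So did the ratio of FUT1 to every other member, as to POFUT2 with 1.21 to 2.80 in JH and 0.366 to 0.649 in LD. FUT1 was chosen for its breed difference, so nothing about FUT8 is read from this ratio. FUT1 was 3.22, 3.78 and 3.50 times FUT8 in JH and 0.487, 1.41 and 0.487 times FUT8 in LD. This ratio is taken within a library, so it does not depend on the scaling of the libraries.

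FUT11 was at 4.28, 2.48 and 3.25 RPKM in JH and at 3.91, 3.93 and 5.0 RPKM in LD. JH1 lay among the LD values, and the log2 fold change was -0.37 ± 0.28 (SE, limma adjusted p = 0.530).

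POFUT1, which modifies Notch receptors, had the second largest fold change of the family. Its expression was 3.42, 2.75 and 4.0 RPKM in JH and 6.33, 6.88 and 4.78 RPKM in LD, and the groups did not overlap. The JH mean was 3.39 ± 0.623 RPKM and the LD mean 6.0 ± 1.09 RPKM (SD, n = 3 each). The log2 fold change was -0.80 ± 0.27 (SE) with a 95% interval of -1.40 to -0.20. The unadjusted p from limma was 0.0142, a level below 0.05 that 17.9% of all tested genes reached, and the adjusted p of 0.164 did not pass. These values rest on 80 to 126 reads per JH library and 154 to 221 reads per LD library.

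POFUT2 was among the most abundant members of both breeds and had the smallest fold change. It was at 17.0, 17.5 and 8.60 RPKM in JH and at 15.6, 18.2 and 9.02 RPKM in LD. The third pig of each breed stood apart, with 8.60 and 9.02 RPKM against 15.6 to 18.2 RPKM in the other 4 pigs. Counting does not cover this step, since the Poisson intervals of JH3 and LD3 ended at 10.1 and 10.5 RPKM and the lowest of the others began at 13.7 RPKM. In JH3 and LD3 the median RPKM of all tested genes was lower as well, 4.18 and 4.19 against 4.99 to 5.23 in the other libraries, and the part of this in the POFUT2 values was not tested. FUT1 did not follow the same pattern in JH, where JH3 was at 24.1 RPKM. The log2 fold change of POFUT2 was -0.00 ± 0.37 (SE) with a 95% interval of -0.83 to 0.83 (limma adjusted p = 1.00).

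FUT1 was the only member past the threshold in limma. Of the other 6 none passed in either direction, by limma or by voom on the recovered reads, and POFUT1 alone had an unadjusted p under 0.05. Among all tested genes 2.39% passed, 1.02% with higher and 1.36% with lower expression in JH. This count includes the gene around which the list was made, so nothing is read from it. The breeds did not overlap in 3 of the 7 members, FUT1 with higher and FUT8 and POFUT1 with lower values in JH. Over all tested genes the breeds did not overlap in 23.4%, in 10.8% with JH higher and in 12.5% with JH lower. The median log2 fold change was -0.19 over the 6 members other than FUT1 and 0.04 over all tested genes. Of these 6 members 2 had a fold change above 0 and 4 below 0.

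By mean level the order within the family differed between the breeds only in the place of FUT1, the gene chosen for its difference. The other members kept the same order. In each JH pig FUT1 had the highest RPKM of the 7 members, and in the LD pigs it ranked 4, 2 and 5. By mean level in JH the order was FUT1, POFUT2, FUT8, POFUT1, FUT11, FUT4 and FUT2. The ranges of FUT1, POFUT2, FUT8 and POFUT1 lay apart from one neighbour to the next, whereas POFUT1, FUT11, FUT4 and FUT2 each overlapped their neighbour. In LD the order was POFUT2, FUT8, FUT1, POFUT1, FUT11, FUT4 and FUT2. Here only FUT11 and FUT4 were neighbours with separate ranges.

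Summed over the 7 members, expression was 54.9, 58.5 and 49.1 RPKM in JH and 46.5, 52.3 and 32.8 RPKM in LD, so the sums of the breeds overlapped. FUT1 made up 37.6%, 43.7% and 49.2% of this sum in JH and 12.3%, 22.6% and 12.2% in LD. Without FUT1 the other 6 members summed to 30.7 ± 5.04 RPKM in JH and 36.7 ± 6.82 RPKM in LD (SD, n = 3 each). The share of POFUT1 was 6.36% ± 1.73 in JH and 13.8% ± 0.725 in LD (SD, n = 3 each). As shares of a sum, these values are tied to the share of FUT1.

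**Figure D2:**
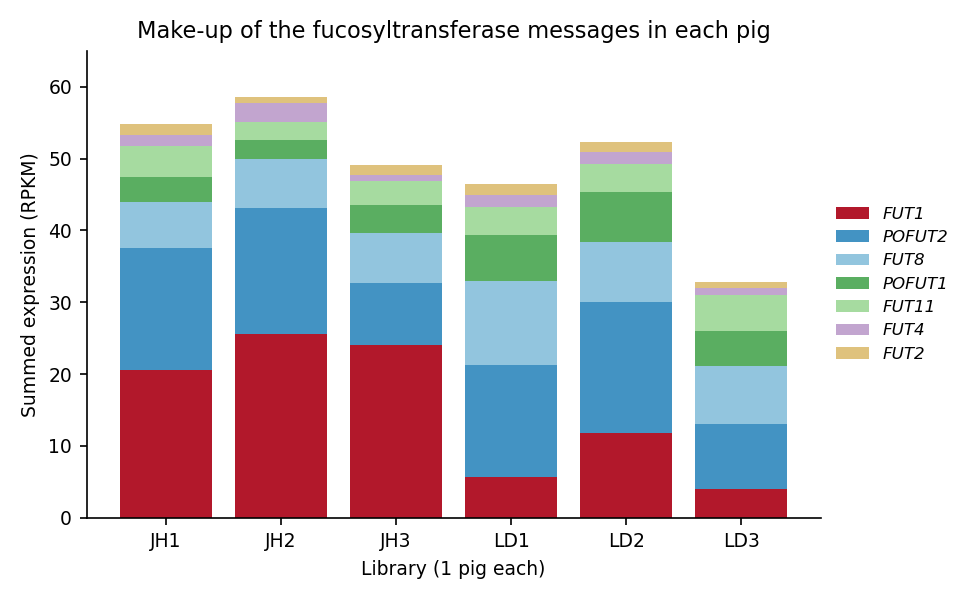
Stacked bars of the RPKM of the 7 members in each pig, with the library on the x axis and summed RPKM on the y axis. The FUT1 part covers 37.6% to 49.2% of the bar in JH and 12.2% to 22.6% in LD, while the total heights of the breeds overlap.

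Further symbols of the family gave little signal. FUT3 was listed at 0 in all libraries but JH3, where it was at 0.182 RPKM, and FUT9 was listed at 0 in all 6. FUT2A, which lies beside FUT2, was at 0.150 to 0.506 RPKM in JH and 0.479 to 0.696 RPKM in LD, on 4 to 17 reads per library (log2 fold change -0.65 ± 0.55 SE, limma adjusted p = 0.579). FUT1, FUT2 and FUT2A are related in sequence, and how the authors counted reads that fit more than 1 gene is not stated in the sources used here, so some reads may be shared among them.

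GDP-fucose is made from mannose by a chain of cytosolic enzymes or salvaged from free fucose. Of 11 genes of this supply, 10 were in the files and 8 were tested, and none passed the threshold in limma or voom, with 1 at an unadjusted p under 0.05 (17.9% of all tested genes). Their median log2 fold change was 0.34, with 6 above and 2 below 0. Phosphomannomutase 1 (PMM1), which makes mannose 1-phosphate, was at 82.7, 28.0 and 14.8 RPKM in JH and at 10.6, 8.92 and 5.27 RPKM in LD. Every JH value lay above every LD value, but the JH pigs differed widely and the log2 fold change of 2.02 ± 0.56 (SE) was not past the threshold (limma adjusted p = 0.104). Its relative PMM2 overlapped between the breeds, with a log2 fold change of 0.69 ± 0.42 (SE, limma adjusted p = 0.433). GMDS, the dehydratase that commits GDP-mannose to GDP-fucose, was at 33.6 to 69.0 RPKM in JH and 43.5 to 62.6 RPKM in LD. TSTA3 and FUK, the next enzyme of the chain and the salvage kinase, were listed at 0 in all libraries.

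Of the 2 genes for the removal of fucose, FUCA2 passed the threshold with lower values in JH (1.36% of all tested genes). FUCA2, an alpha-L-fucosidase that is secreted, was at 3.68, 4.0 and 2.79 RPKM in JH and at 16.1, 14.1 and 10.9 RPKM in LD. The groups lay far apart, and FUCA2 was lower in JH, at a log2 fold change of -1.94 ± 0.26 (SE, limma adjusted p = 0.00850). The reads behind FUCA2 numbered 45 to 66 in the JH libraries and 184 to 244 in LD. Without LD1 FUCA2 had a log2 fold change of -1.82 and no longer passed, and it passed in the other 5 fits with 1 pig removed. The lysosomal fucosidase FUCA1 was at 13.3, 19.8 and 14.3 RPKM in JH and at 24.7, 24.6 and 23.4 RPKM in LD. These groups did not overlap either, but the log2 fold change of -0.64 ± 0.24 (SE) was not past the threshold (limma adjusted p = 0.210).

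FUT1 and FUT2 need galactose-ended chains as acceptors. Of 26 genes that build or compete for such chains, 23 were in the files and 19 were tested. B3GALT4 and B3GNT5 passed the threshold, both higher in JH, and none was lower, against 1.02% of all tested genes called higher and 1.36% called lower. The median log2 fold change of the list was 0.06. B3GALT4, a galactosyltransferase of gangliosides, was at 15.0, 16.6 and 13.8 RPKM in JH and at 6.48, 7.44 and 6.29 RPKM in LD (log2 fold change 1.16 ± 0.23 SE, limma adjusted p = 0.0375). B3GNT5, which starts the lacto-series chains of glycolipids, was at 1.15, 1.5 and 1.44 RPKM in JH and at 0.353, 0.202 and 0.144 RPKM in LD. Its log2 fold change was 2.18 ± 0.46 (SE). The LD values of B3GNT5 stand for 5 to 11 reads per library. All 3 were under the filter of 0.5 RPKM, so that B3GNT5 entered the test only through its JH values, and its call is given as a description. With no filter on low values it did not pass. With 1 pig removed, B3GALT4 passed in 1 of 6 fits (the one without JH3, log2 fold change 1.22), and B3GNT5 in none. GGTA1, which caps the same galactose with another galactose, was at 4.78 to 5.95 RPKM in JH and 6.33 to 9.24 RPKM in LD (log2 fold change -0.61 ± 0.25 SE, limma adjusted p = 0.248).

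FUT8 acts on N-glycans that Golgi enzymes have trimmed. Of 8 tested genes of this processing none passed the threshold in limma or voom, 3 had an unadjusted p under 0.05, and 4 did not overlap between the breeds, all with lower values in JH. Of all tested genes 17.9% had such a p and 12.5% were lower in JH without overlap. MAN1A1, a Golgi mannosidase, was at 7.72 to 12.1 RPKM in JH and 17.3 to 23.9 RPKM in LD (log2 fold change -1.01 ± 0.27 SE, limma adjusted p = 0.0963). MAN1A2 had a log2 fold change of -1.09 ± 0.39 (SE, limma adjusted p = 0.187). The median of the list was -0.59.

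Sialyltransferases cap the same chains with sialic acid. None of the 8 tested passed the threshold in limma or voom, 3 had an unadjusted p under 0.05, 3 were without overlap and lower in JH (17.9% and 12.5% of all tested genes), and their median log2 fold change was -0.55. ST3GAL6 had a log2 fold change of -1.90 ± 0.58 (SE, limma adjusted p = 0.139) and ST6GALNAC6 one of -0.99 ± 0.25 (SE, limma adjusted p = 0.0825). ST3GAL6 entered the test through its LD values, since of the JH pigs only JH2 reached the filter of 0.5 RPKM.

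POFUT1 acts on Notch receptors and ligands. Of 16 genes of the Notch pathway 12 were tested, none passed the threshold in limma or voom, 4 had an unadjusted p under 0.05 (17.9% of all tested genes), and their median log2 fold change was -0.40. In 4 of the 12 the breeds did not overlap, each time with lower values in JH, as in 12.5% of all tested genes. NOTCH2 was at 1.45, 1.52 and 3.20 RPKM in JH and at 3.73, 4.13 and 4.97 RPKM in LD (log2 fold change -1.10 ± 0.34 SE, limma adjusted p = 0.141). NOTCH3 had a log2 fold change of -0.90 ± 0.35 (SE, limma adjusted p = 0.215).

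Of the 8 tested genes around POFUT2, which hold or modify thrombospondin type repeats, 1 passed the threshold, higher in JH (1.02% of all tested genes), and the median log2 fold change was -0.07. ADAMTSL4, a secreted protein with such repeats, was at 56.1, 52.0 and 27.4 RPKM in JH and at 8.40, 12.2 and 8.60 RPKM in LD. ADAMTSL4 was higher in JH, at a log2 fold change of 2.16 ± 0.32 (SE, limma adjusted p = 0.0131). Without LD1 ADAMTSL4 had a log2 fold change of 2.06 and no longer passed, and it passed in the other 5 fits with 1 pig removed. B3GALTL, which extends the fucose that POFUT2 adds, had a log2 fold change of 0.02 ± 0.26 (SE, limma adjusted p = 0.972).

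**Figure D3:**
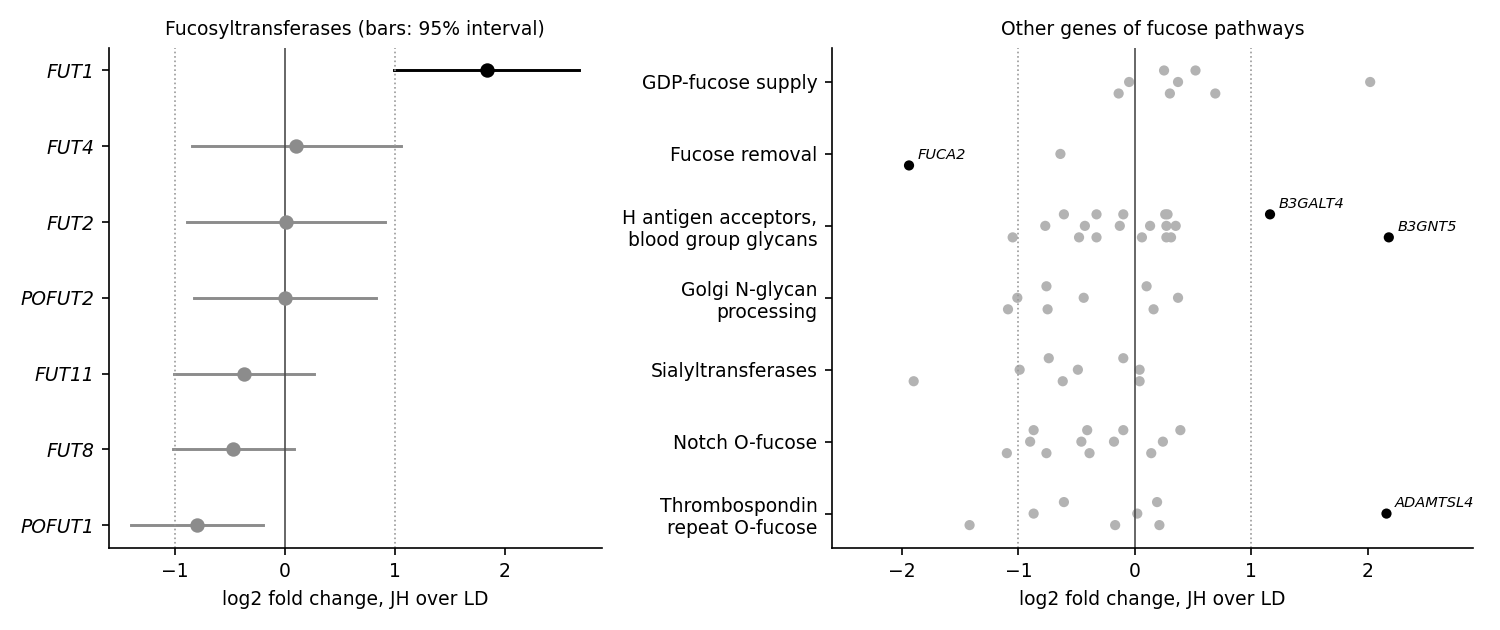
Log2 fold changes of JH over LD, on the left for the 7 members with 95% intervals from limma and on the right for the tested genes of 7 lists around the pathway (1 point per gene, spread vertically within a list), with dotted lines at -1 and 1. Black marks genes past the threshold, which are FUT1 at 1.84 on the left and FUCA2, B3GALT4, B3GNT5 and ADAMTSL4 on the right.

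FUT2 and FUT1 lie near one another, with 4 genes between them in the RefSeq annotation of Sscrofa11.1. The files use an earlier build, so the order alone was taken. Of 12 genes in this stretch, 3 beyond each end included, 10 were in the files and 8 were tested. FUT1, the gene chosen for its difference, and FGF21 passed the threshold, which 2.39% of all tested genes passed. FGF21, a hormone that the liver secretes in fasting and metabolic stress, was at 23.1, 10.3 and 5.93 RPKM in JH and at 0.475, 0.940 and 0.0852 RPKM in LD (log2 fold change 4.56 ± 0.66 SE). Of the LD pigs only LD2 reached the filter of 0.5 RPKM. FGF21 thus entered the test through its JH values, and its call is given as a description. The LD values of FGF21 stand for 5, 11 and 1 reads, and without LD1 it no longer passed with a log2 fold change of 4.69. Its log2 fold change was 3.88 without LD3 and 3.08 with a pseudocount of 1.

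FGF21 and FUT1 had the same order among the LD pigs (LD2, LD1, LD3) but not among the JH pigs, where FGF21 was highest in JH1 and FUT1 was lowest there. Pearson's r with FUT1 over the 6 libraries, on log2(RPKM + 0.1), was 0.93 for FGF21 and 0.90 for IZUMO1, as a description over points that share the split of the breeds. IZUMO1, on the other side of FUT1, was at 0.753 to 1.00 RPKM in JH and 0.244 to 0.877 RPKM in LD on 2 to 9 reads (log2 fold change 0.90 ± 0.51 SE, limma adjusted p = 0.398). RASIP1 and BCAT2 overlapped between the breeds, with log2 fold changes of -0.04 and -0.49 (adjusted p = 0.967 and 0.524 from limma). In this annotation FUT1 overlaps LOC110261360, which lies between FUT1 and FGF21 and was not analysed here, and FUT2 overlaps MAMSTR. Whether the counting used the strand is not stated, so reads of overlapping genes cannot be told apart.

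**Figure D4:**
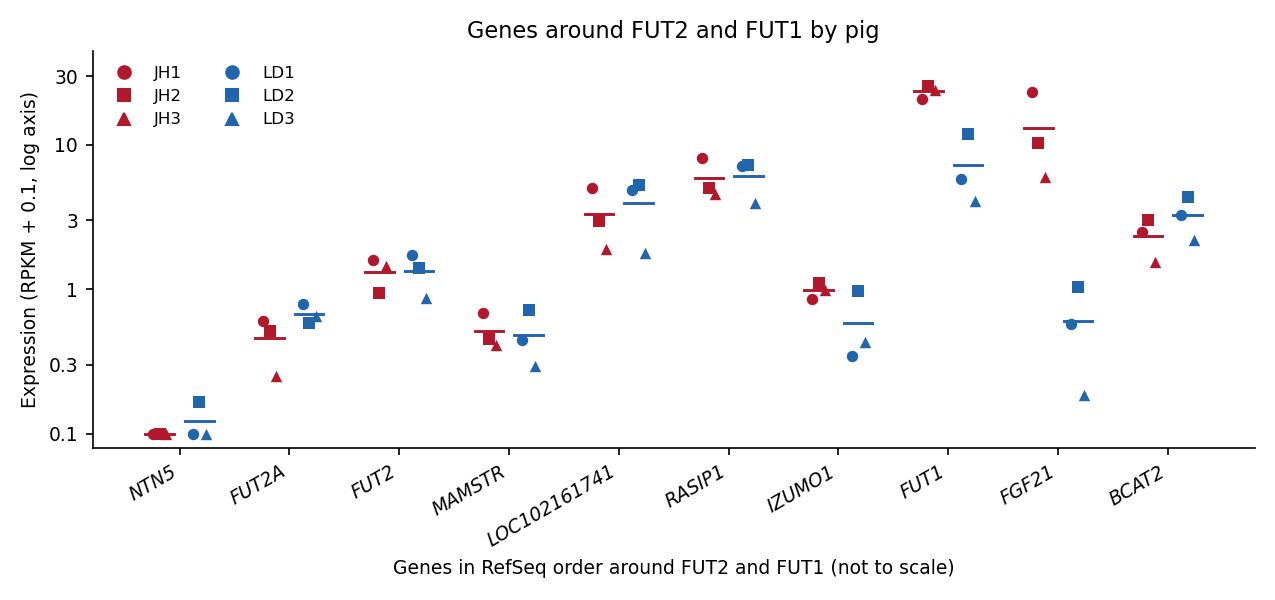
RPKM + 0.1 on a log axis for the 10 genes of the files around FUT2 and FUT1, in RefSeq order and not to scale, with 1 point per pig and a line at the mean of each breed. FUT1 and FGF21 are the 2 genes whose JH points all lie above the LD points, and the 8 others overlap. Of all tested genes 10.8% were higher in JH without overlap. FUT1 was chosen for its difference and FGF21 entered the test through its JH values.

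Across the 6 libraries, the tested genes with the pattern most like that of FUT1 were IFRD1, LOC102166733, CCDC59, SFR1 and LOC100739101. Their r with FUT1 lay between 0.9925 and 0.9983, again as a description. SFR1 rests on 1 to 10 reads per library. All its LD values were under the filter of 0.5 RPKM, so it was tested only through its JH values. IFRD1 was at 10.3, 12.0 and 11.3 RPKM in JH and at 3.61, 6.54 and 3.06 RPKM in LD, with the same order of the LD pigs as in FUT1. LOC100739101 was at 25.7, 29.4 and 23.3 RPKM in JH and at 1.36, 6.90 and 0.333 RPKM in LD, where the LD3 value stands for 3 reads. Among the members r was highest for FUT4 with 0.26 and lowest for FUT8 with -0.75.

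Hepatocyte markers were high in all libraries, with sums of 56878 to 69182 RPKM in JH and 70581 to 84851 RPKM in LD over 6 genes, none of them past the threshold and 3 at an unadjusted p under 0.05. These 3 did not share a direction. ALB and TF were lower in JH (log2 fold change -0.67 and -1.13) and APOA1 was higher (0.90). Over all tested genes 2.39% passed the threshold, 1.36% with lower values in JH, and 17.9% had an unadjusted p under 0.05. Of the other cell types, stellate cells and fibroblasts had the most markers past the threshold. The 7 stellate cell and fibroblast markers summed to 77.4 to 99.3 RPKM in JH and 189 to 388 RPKM in LD, and 3 of 7 were lower at the threshold (COL1A1, COL1A2 and COL3A1). Of these 7 markers 6 had an unadjusted p under 0.05. LUM is among the 6, but all its JH values were under the filter of 0.5 RPKM. It entered the test only through its LD values, so its p is given as a description. The 5 endothelial markers in the files summed to at most 52.2 RPKM in JH and at least 72.6 RPKM in LD, with none past the threshold and 2 at an unadjusted p under 0.05. PECAM1, KDR and VWF were lower in JH without overlap, as were 12.5% of all tested genes, while STAB2 and LYVE1 overlapped. Of 5 tested bile duct markers 4 had an unadjusted p under 0.05. One of them, SOX9, entered the test through its LD values, since of the JH pigs only JH1 reached the filter. Only EPCAM passed the threshold, lower in JH (log2 fold change -1.55 ± 0.28 SE, limma adjusted p = 0.0301, not past the threshold by voom). The sum of the list, led by CLDN4, overlapped with 92.7 to 248 RPKM in JH and 72.4 to 155 RPKM in LD.

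The erythroid markers summed to 90.2 to 122 RPKM in JH and 213 to 393 RPKM in LD. Of 2 tested, HBB passed the threshold with lower values in JH, as did 1.36% of all tested genes (log2 fold change -1.39 ± 0.29 SE, limma adjusted p = 0.0459). Macrophage markers, with CD163 listed at 0, summed to 445 to 1083 RPKM in JH and 817 to 1018 RPKM in LD, and lymphocyte markers to 19.1 to 67.6 and 23.5 to 31.6 RPKM. No macrophage or lymphocyte marker passed the threshold, and 1 macrophage and 0 lymphocyte markers had an unadjusted p under 0.05 (17.9% of all tested genes). This macrophage marker, CSF1R, entered the test through its JH values, since of the LD pigs only LD2 reached the filter. Of the intestinal markers SI was listed at 0 and the 4 genes together stayed at or below 1.27 RPKM, with CDX2 at 1.27, 1.14 and 0.806 RPKM in JH and 0.0732, 0.132 and 0 RPKM in LD. CDX2 also entered the test only through its JH values, so its difference is given without a test. The part of these cell types in the values of FUT1, FUT8, POFUT1 or FUCA2 was not tested.

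**Figure D5:**
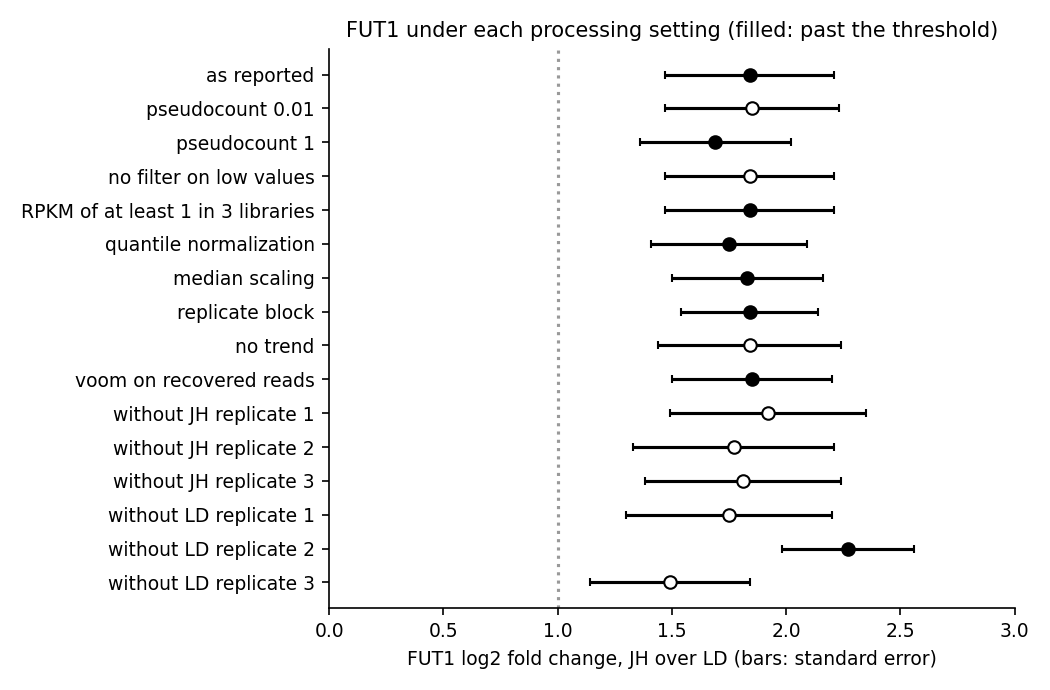
Log2 fold change of FUT1, JH over LD, with its standard error under the reported setting and 15 alternatives, filled where FUT1 passed the threshold. The values lie between 1.49 and 2.27, and the call was kept in 6 of 9 alternatives of processing and in 1 of 6 fits without 1 pig.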

How the data were processed

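Liver mRNA of 3 JH and 3 LD pigs was sequenced as single reads. The authors aligned them to the pig genome Sus scrofa 10.2 with TopHat2 (2.0.13 in the submitters' processing notes), obtained gene counts from gfold, and deposited the RPKM of each gene, 1 file per pig. The small RNA libraries were not used here, since they hold no values of these genes. Libraries were grouped by their labels.

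The breeds were compared in limma 3.58.1 (R 4.3.3), with a variance trend, on log2(RPKM + 0.1). It took in the 12993 genes that reached 0.5 RPKM in 3 or more libraries, with two-sided p values and Benjamini-Hochberg adjustment over all of them. Fold changes on this scale understate those of low genes. P values reflect the spread between these pigs. On simulated data of this size 188 of 200 genes changed by 2 (log2) were called, with 5 false calls. The simulated spread was that typical of genes at the same level, with noise independent between genes. Genes with a larger spread and shifts of a whole library are not covered by it.

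The value of 1 read was found from the steps between low RPKM values, which gave totals of 5744909 to 7914515 reads per library and whole reads (within 0.03) for 12719 of the tested genes. Of 3000 genes with known reads 2775 were resolved, 98.6% of them exactly.

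Named were the members, every list gene past the threshold or else the 2 with the largest fold change, the 5 genes most like FUT1 and the RefSeq neighbours. Further genes (FUCA1, GMDS, GGTA1, B3GALTL, TSTA3, FUK and the marker genes) were named after their values were seen. Members and lists were chosen with earlier results of these data known. Alternatives were other pseudocounts (0.01 and 1), filters, scalings, the replicate block, no variance trend, voom on recovered reads and each pig left out. Plots were drawn with matplotlib 3.10.9.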

Additional observations from a re-analysis of the deposited data

How the results depend on the processing

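FUT1 kept its direction in all 15 alternatives. Its call was lost, leaving 0 fucosyltransferases past the threshold, with a pseudocount of 0.01 (log2 fold change 1.85), with no filter on low values (1.84) and with no variance trend (1.84). It was kept, as the 1 member past the threshold, in the other 6 alternatives of processing (1.69 to 1.85). In the fits that each left out 1 pig the log2 fold change of FUT1 ranged from 1.49 to 2.27 and the members past the threshold from 0 to 1. No alternative brought FUT2, FUT4, FUT8, FUT11, POFUT1 or POFUT2 past the threshold. FUT8, FUT11 and POFUT1 kept their direction in all 15, while members near 0 changed sign with 1 pig removed. FUT2 ranged from -0.28 to 0.24, FUT4 from -0.26 to 0.49 and POFUT2 from -0.30 to 0.33. FUT2 was at -0.15 without JH1, -0.07 without JH3 and -0.28 without LD3, FUT4 at -0.26 without JH2 and -0.09 without LD3, and POFUT2 at 0.33 without JH3, 0.09 without LD1 and 0.21 without LD2.

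The number of genes past the threshold was 310, against 199 with a pseudocount of 0.01, 200 with no filter on low values and 79 to 406 without 1 pig. Same-numbered JH and LD libraries correlated in their deviations from the breed means with r of -0.02, 0.05 and 0.18. JH3 and LD3 alone correlated best with their own number. The labels give no pairing beyond the number, so the reported fit took the libraries as unpaired. Whether JH3 and LD3, which also had the lowest median RPKM, share a further factor was not tested. The replicate block gave 253 genes, with FUT1 at 1.84 and past the threshold, and of the pathway genes described it removed the call of B3GNT5. B3GNT5 fell to 0.94 with a pseudocount of 1 and was past the threshold in 4 of the 9 alternatives of processing, B3GALT4 in 8, and FUCA2, ADAMTSL4 and FGF21 in 9. For B3GNT5 and FGF21, which entered the test through their JH values, these counts are a description. The causes were not tested. Of the 7 members FUT2 had the fewest reads, at most 27 per library. The low values of FUT2A, IZUMO1, B3GNT5, FGF21, ST3GAL6 and SFR1, and that of LOC100739101 in LD3, rest on fewer.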
